A study of Homo sapiens with 8 samples.

Results

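RNA-seq values of 10 genes, 7 cathepsins (CTSL, CTSB, CTSS, CTSC, CTSH, CTSZ and CTSD) and 3 cystatins (CSTA, CSTB and CST3), were compared between control cells and cells treated with Z325 in HCT116 and NCI-H716, cell lines from colorectal cancers. The genes were taken by symbol. CTSL is among the genes that the paper names in treated HCT116 cells, and CSTA was included because its read count rose in treated HCT116. For that reason the HCT116 values of these genes are given as a description, with no test. The genes are 10 of 63241 listed in the NCI-H716 tables and 3 of them (CTSB, CTSS and CSTA) are among the 28043 genes listed in the HCT116 table used here, which covers chromosomes 1 to 8 and the start of chromosome 9. The other members were not analysed here in HCT116. In NCI-H716, 8 members had enough reads for the test, and in HCT116 2 had.

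Z325, or ZINC000101867325, is a small molecule picked by docking against the FGFR kinases, the receptors for fibroblast growth factors, and dissolved in DMSO. Each line had a control group and a Z325 group of 2 libraries, 8 libraries in all. The labels name the treated cells only as the test group, and the paper sets a concentration for its later experiments as a whole, without a separate dose or time for the sequencing. The libraries were made by full-length cDNA amplification from small pools of cells, so a lower value may be fewer expressing cells or less RNA per cell, which cannot be told apart. The labels do not say that libraries of a group came from separate cultures, although the paper calls them biological duplicates, and p-values measure only the spread between these libraries.

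Cathepsins are proteases of the endosomes and lysosomes. CTSL, CTSB, CTSS, CTSC, CTSH and CTSZ cut through a cysteine in their active site, while CTSD is an aspartic protease. They are made as inactive precursors, carried to the lysosome by mannose 6-phosphate receptors and matured by proteolysis. When lysosomal membranes are damaged they can leak into the cytosol and cleave substrates there that promote apoptosis. Cystatins are small reversible inhibitors of the cysteine cathepsins that block the active site cleft: CSTA (stefin A) and CSTB (stefin B) act inside the cell, while CST3 (cystatin C) is secreted. CTSD is not inhibited by cystatins. In colorectal tumours cathepsins are mostly discussed for degradation of the matrix around the tumour.

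Promoter sequence of 6 of the 10 members was found in the RefSeq table for GRCh38.p14. Those of CTSB, CTSS, CSTA and CSTB were not in that table. The 120 bases before the annotated start are shown on the strand of the gene for the aspartic protease CTSD, CTSL and the secreted inhibitor CST3. These had the largest fitted differences among the 8 members tested in NCI-H716. Capitals mark 2 motifs, CACGTG (the core of the E-box recognised by TFEB, TFE3 and MITF, regulators of lysosomal genes) and TGACNNNGC (the core of the antioxidant response element), searched on both strands.
CTSD, chr11:1763928-1764047, minus strand: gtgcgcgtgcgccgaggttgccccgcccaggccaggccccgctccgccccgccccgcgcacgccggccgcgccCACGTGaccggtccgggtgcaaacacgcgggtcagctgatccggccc
CTSL, chr9:87725999-87726118, plus strand: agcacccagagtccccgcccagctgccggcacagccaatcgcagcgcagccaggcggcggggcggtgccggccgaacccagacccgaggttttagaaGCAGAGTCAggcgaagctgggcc
CST3, chr20:23637956-23638075, minus strand: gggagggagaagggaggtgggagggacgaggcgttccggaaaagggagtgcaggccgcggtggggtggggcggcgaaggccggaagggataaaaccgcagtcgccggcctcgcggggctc

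Over the full promoter window, from 250 bases before the start to 50 after it, CACGTG was found once in CTSD and in none of the other 5 members with an entry. It was present in 7.26% of all promoters in the table. TGACNNNGC was found in CTSL, CTSC, CTSZ and CTSD, against 13.3% of all promoters. In CTSL the match lies on the opposite strand, so the capitals read as its reverse complement. In CTSD, the only member with both, the matches of the 2 motifs did not overlap. These matches are letters in a window and were not tested for binding.

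The markers of the cell lines were checked before the members. EPCAM, the epithelial adhesion molecule, had 1424 to 1655 CPM (library-size scaled counts, corrected by TMM factors) in HCT116. Only 3 of 9 epithelial markers were listed there, EPCAM, VIL1 and CDX1, and VIL1 and CDX1 had at most 6 and 2 reads. In NCI-H716, 6 of 9 epithelial markers had at least 10 reads in every library, as had 5 of 6 neuroendocrine markers, while CDX1 had none and CDH1 at most 7. The summed CPM of the neuroendocrine markers was 677 to 753 in the NCI-H716 controls and 828 to 1025 in the treated libraries, and that of the epithelial markers 755 to 783 and 645 to 657. The part of these shifts in the values of the members was not tested. COL3A1 and LUM, which are used to define fibroblasts, were high in NCI-H716 (at least 117 CPM), although COL1A1 and PDGFRB had at most 1 read. PTPRC, which marks all leukocytes, had at most 4 reads in HCT116 and 1 in NCI-H716. The summed CPM of the 6 leukocyte markers ran from 6.40 to 7.88 in the NCI-H716 controls and from 3.22 to 6.19 in the treated libraries. Of these markers only CD68 and LYZ had at least 10 reads in every NCI-H716 library. CD14 had 2 to 14 reads, CSF1R at most 3 and CD163 at most 2. The part of leukocytes in the values of CTSS, a gene of antigen-presenting cells, was not tested. Listed reads ran from 10210272 to 19738881 per library in NCI-H716 and from 13183792 to 13396225 in 3 HCT116 libraries. The library of HCT116 treated with Z325, replicate 2, held 3434620 and stands apart. The HCT116 fold changes of CSTA, CTSB and ATP6V1A are given with and without it. Those of other named genes and the list medians are given only with it.

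The 10 members spanned a wide range of levels in NCI-H716. In TPM, a unit that divides by transcript length and so allows genes to be compared, the order over 4 libraries was CST3 (347 ± 139, SD), CSTB (276 ± 33.6), CTSC (163 ± 12.3), CTSB (19.1 ± 3.47), CTSD (10.3 ± 5.56), CTSL (9.91 ± 1.97), CTSH (1.81 ± 0.509), CTSZ (0.765 ± 0.116), CSTA (0.310 ± 0.306) and CTSS (0.220 ± 0.231). The ranges of CST3 and CSTB overlapped, as did those of CTSB, CTSD and CTSL between neighbours, and those of CTSZ, CSTA and CTSS. Within the groups the order turned for some of the neighbours that overlapped, but not for CTSB over CTSD or CTSZ over CSTA. Mean CSTA, at few reads, was below CTSS in the controls (0.075 and 0.39 TPM) but not after Z325 (0.545 and 0.05 TPM). Mean CST3 was above CSTB in the controls (437 and 281 TPM) but not after Z325 (257 and 270 TPM), and mean CTSD was above CTSL in the controls (13.5 and 8.58 TPM) but not after Z325 (7.11 and 11.2 TPM). The ranges were separate between CSTB and CTSC, between CTSC and CTSB, between CTSL and CTSH, and between CTSH and CTSZ. CTSC, the dipeptidyl peptidase that activates granule serine proteases, therefore stood far above the other cathepsins in these cells. It made up 74.4% and 79.0% of the summed TPM of the 7 cathepsins in the controls, and 80.8% and 83.5% in the treated libraries. By CPM, with no division by length, its share was 64.5% and 68.4% in the controls and 66.9% and 69.4% in the treated libraries, and the groups overlapped.

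**Figure D1:**
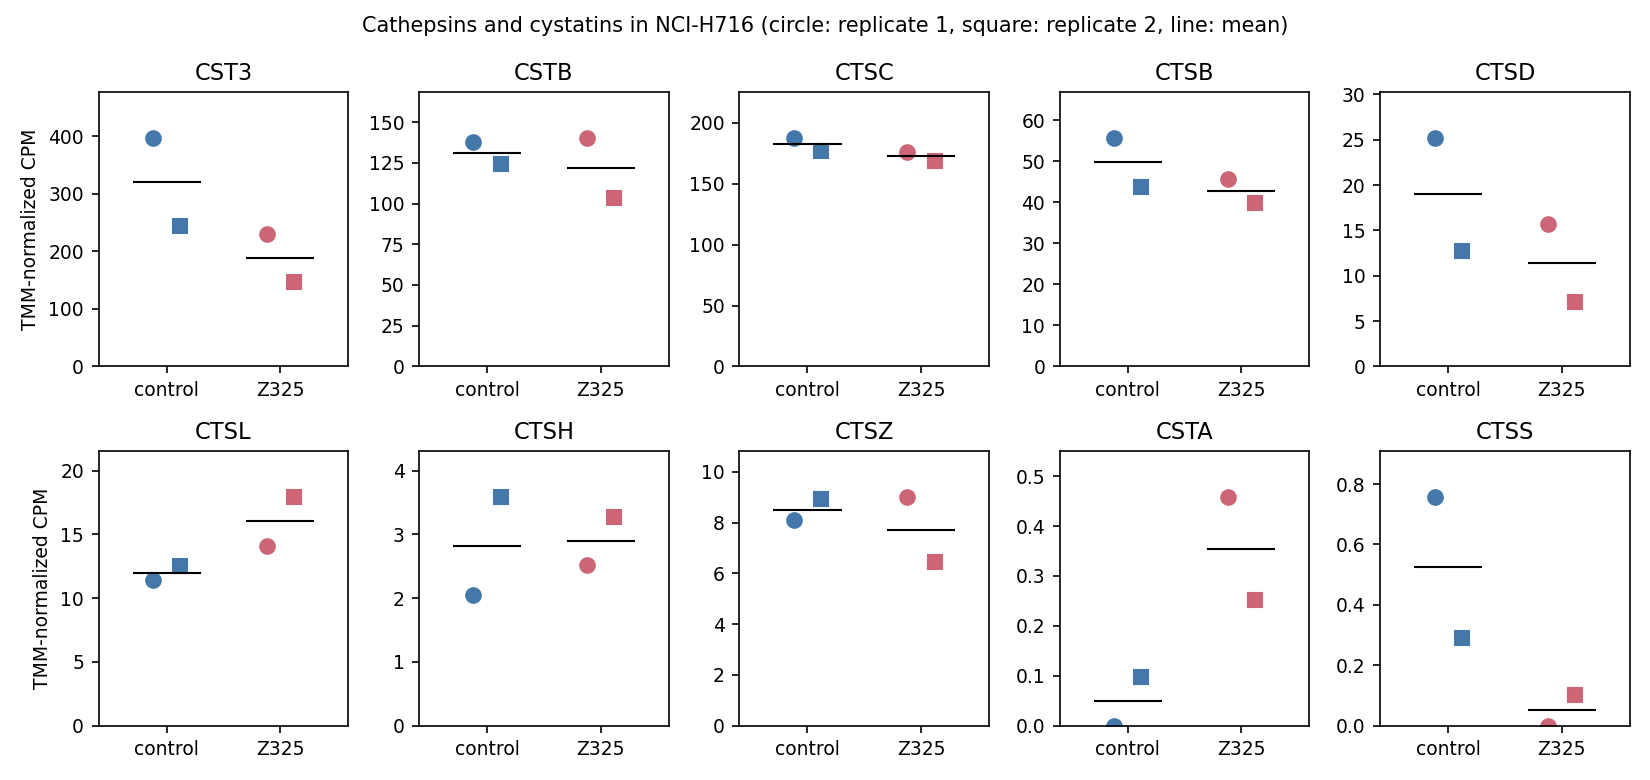
TMM-normalized CPM (vertical axes, each from 0) of the 10 members in the 4 NCI-H716 libraries, by group. Circles are replicate 1, squares replicate 2 and lines the mean of 2. Both treated libraries lie above both controls for CTSL and CSTA and below them for CST3, CTSC and CTSS, with CTSS and CSTA at 10 reads or fewer in every library.

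No member passed the test in NCI-H716. Of the 8 tested members, 0 had an adjusted p under 0.05 in edgeR's quasi-likelihood test, where 0.502% of all 14142 genes tested had, and 1 had an unadjusted p under 0.05 (16.8% of all genes had). DESeq2 called 0 of them as well, where it called 0.515% of all 63241 listed genes. The median log2 fold change of the 8 members was -0.13, against -0.01 over all genes tested, with 2 members above 0 and 6 below. Groups did not overlap for 3 of the 8 tested members, while 49.5% of all genes had groups that did not overlap. Both treated libraries were higher for 1 of them (24.3% of all genes) and lower for 2 (25.1% of all genes).

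CST3 (chr20:23626706-23638473, GRCh38, minus strand), which encodes the secreted inhibitor, had the lowest fitted value of the 8 tested members. Its TMM-normalized CPM was 398 and 245 in the controls and 230 and 147 after Z325. Both treated libraries lay below both controls, but the lower control and the higher treated library were close, and replicate 1 was above replicate 2 in either group. The log2 fold change was -0.77 (SE 0.26, 95% interval -1.35 to -0.19), a ratio of 0.586, with an unadjusted p of 0.0138 and an adjusted p of 0.197 in edgeR. The value depended on single libraries: it was -0.38 without control replicate 1 and -1.12 without Z325 replicate 1. With no filter on low counts it was -0.74, with an adjusted p of 0.00341 in edgeR, a setting in which 2.46% of all genes passed.

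CSTB (chr21:43772511-43776330, minus strand), the inhibitor in the cytosol and nucleus, had 138 and 124 CPM in the controls and 140 and 103 CPM in the treated libraries. The treated libraries enclosed the controls, and the log2 fold change was -0.11 (SE 0.19, adjusted p = 0.819, edgeR). Its 95% interval, from -0.52 to 0.31, does not include a change of 2-fold in either direction.

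CSTA (chr3:122325248-122341969, plus strand), the other intracellular inhibitor, was at the limit of detection in NCI-H716 with 0 and 1 reads in the controls and 6 and 5 reads in the treated libraries. Both treated libraries were above both controls, at a depth that did not pass the filter for the test. The summed reads, 11 against 1, gave a ratio of rates of 7.88, with an exact 95% interval of 1.15 to 339 that covers counting error only. With no filter the fitted log2 fold change was 2.78 (SE 2.07, adjusted p = 0.828, edgeR).

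Of the cysteine cathepsins, CTSL (chr9:87724051-87731469, plus strand), an endopeptidase with broad specificity, was the tested member with the highest fitted value. Its CPM was 11.4 and 12.5 in the controls and 14.1 and 17.9 in the treated libraries, so both treated libraries were above both controls. The log2 fold change was 0.43 (SE 0.24, 95% interval -0.11 to 0.96), and the adjusted p was 0.4005 in edgeR. Across 13 alternatives the value ran from 0.25 to 0.59 and the adjusted p never fell below 0.210. CTSL has pseudogenes and a close relative, CTSV, with which reads could be shared. Its estimated counts were whole in all 4 libraries, and sharing of reads was not tested.

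CTSB (chr8:11842524-11869533, minus strand), which has both endopeptidase and carboxypeptidase activity, had 55.7 and 43.7 CPM in the NCI-H716 controls and 45.7 and 39.7 CPM in the treated libraries. The groups overlapped, and the log2 fold change was -0.22 (SE 0.20, adjusted p = 0.604, edgeR). It was -0.03 without control replicate 1 and -0.37 without control replicate 2.

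CTSC (chr11:88265069-88359684, minus strand) gave opposite directions by count and by length-corrected level. Its CPM was 188 and 177 in the controls and 176 and 169 in the treated libraries, lower in both treated libraries by a small margin (log2 fold change -0.08, SE 0.16, adjusted p = 0.834, edgeR). Its TPM was 151 and 154 in the controls and 171 and 176 in the treated libraries, higher in both. On the log2(FPKM + 1) scale limma gave 0.25 (adjusted p = 0.712), and on the log2(TPM + 1) scale 0.18 (adjusted p = 0.709). Between these scales stands the length that RSEM weighted by the share of each isoform, 1170 and 1123 bases in the controls and 1018 and 963 bases in the treated libraries, all shorter than the 1870 bases of its MANE Select transcript. Neither direction passed a test. In the whole NCI-H716 table limma called 1 gene on the log2(FPKM + 1) scale and 0 on the log2(TPM + 1) scale.

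CTSH (chr15:78921058-78949574, minus strand), an aminopeptidase, had 2.04 and 3.59 CPM in the controls and 2.52 and 3.27 CPM in the treated libraries. The controls enclosed the treated libraries, and the log2 fold change of 0.06 (SE 0.47, adjusted p = 0.963, edgeR) turned negative on the TPM and FPKM scales and without Z325 replicate 2 or control replicate 1. CTSZ (chr20:58985686-59008238, minus strand), a carboxypeptidase, had 8.10 and 8.92 CPM in the controls and 9.01 and 6.43 CPM in the treated libraries, a log2 fold change of -0.15 (SE 0.29, adjusted p = 0.840, edgeR) that turned to 0.04 on the log2(FPKM + 1) scale. CTSS (chr1:150730079-150765957, minus strand), an endopeptidase of antigen-presenting cells, had 10 and 3 reads in the controls and 0 and 2 reads in the treated libraries. That was too few for the filter, and with no filter the log2 fold change was -3.00 (SE 1.67, adjusted p = 0.599, edgeR).

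The counts of CTSZ are uncertain. The lengths that RSEM weighted by isoform share were far above the usual transcript, 7015 and 10849 bases in the controls and 8370 and 6617 bases in the treated libraries, where the MANE Select transcript has 1502 bases. The longest annotated isoform, CTSZ-222, has 10849 bases and a last exon of 10074 bases at chr20:58985686-58995759 (GRCh38), of which 6136 bases overlap exons of NELFCD on the other strand. NELFCD had 51.8 to 82.9 TPM in these libraries, and the estimated counts of CTSZ were fractional in all 4 libraries. Whether its reads came from CTSZ or from NELFCD was not tested. The counting was not stated to use strand, and the level of CTSZ in TPM, divided by such a length, shares this uncertainty.

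CTSD (chr11:1752752-1764573, minus strand), the aspartic protease, had 25.2 and 12.7 CPM in the controls and 15.7 and 7.09 CPM in the treated libraries. The groups overlapped, and within a group replicate 1 exceeded replicate 2 by a larger ratio than control exceeded Z325 within a replicate number. The log2 fold change was -0.75 (SE 0.40, 95% interval -1.64 to 0.13), with an adjusted p of 0.364 in edgeR. It was -0.17 without control replicate 1, -0.26 without Z325 replicate 2 and -1.42 without Z325 replicate 1. Of the exon bases of CTSD, 22.9% are shared with a readthrough gene on the same strand and 23.4% with the lncRNA PRADX on the other strand, and its estimated counts were fractional in 2 libraries, so they are uncertain.

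**Figure D2:**
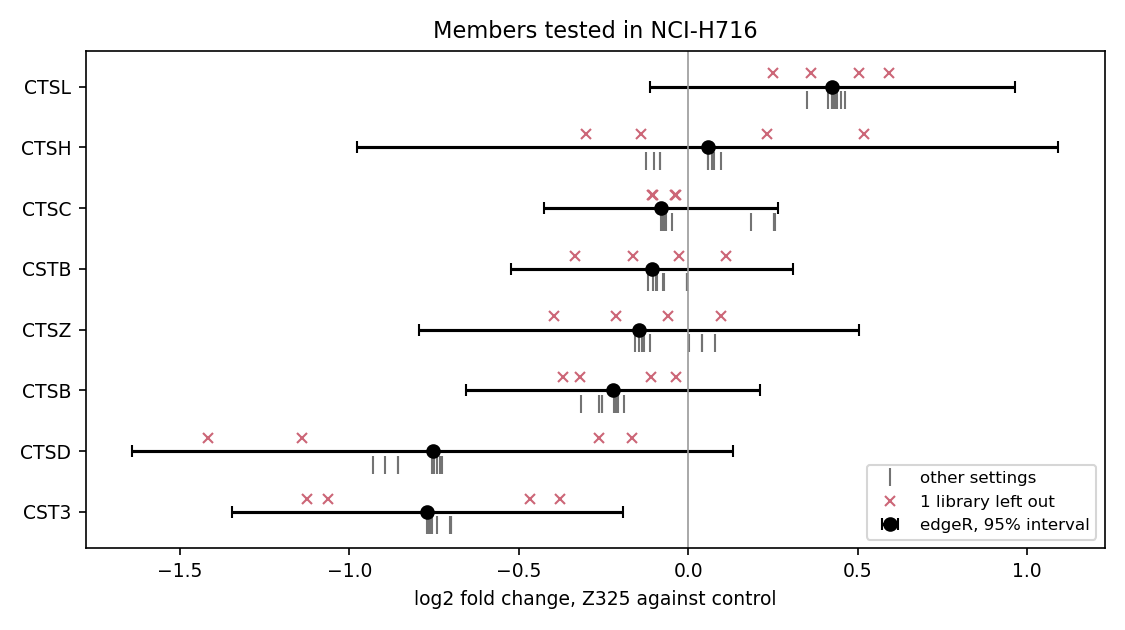
Log2 fold change of Z325 against control (horizontal axis) for the 8 members tested in NCI-H716. Black points and bars give the edgeR value with its 95% interval, red crosses the values with 1 library left out and grey ticks those of the other settings. The interval of CST3, from -1.35 to -0.19, is the only one that does not include 0, before adjustment over all genes, and the values of CTSD with 1 library left out spread from -1.42 to -0.17.

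Summed levels of inhibitors and proteases were compared by library, as a description over chosen genes. The 7 cathepsins summed to 203 and 195 TPM in the NCI-H716 controls and to 212 and 211 TPM in the treated libraries. The 3 cystatins summed to 817 and 620 TPM in the controls and to 628 and 428 TPM in the treated libraries. The ratio of cystatins to cathepsins was 4.02 and 3.17 in the controls and 2.96 and 2.03 in the treated libraries. It was lower in both treated libraries, with a gap between the groups that is smaller than the gap between replicates of either group. By CPM the cathepsins summed to 291 and 259 in the controls and to 263 and 244 in the treated libraries, with overlapping groups and the lower mean after Z325, so the direction of the cathepsin sum depended on the unit. The ratio by CPM was 1.84 and 1.43 in the controls and 1.41 and 1.03 in the treated libraries, so that the groups almost touched. The difference in the cystatin sum followed CST3, whose ratio to CSTB was 1.87 and 1.23 in the controls and 1.02 and 0.856 in the treated libraries. Mean CSTB was 281 TPM in the controls and 270 TPM after Z325. CTSD, which cystatins do not inhibit, is part of the cathepsin sum, and CST3, which is secreted, is part of the cystatin sum.

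**Figure D3:**
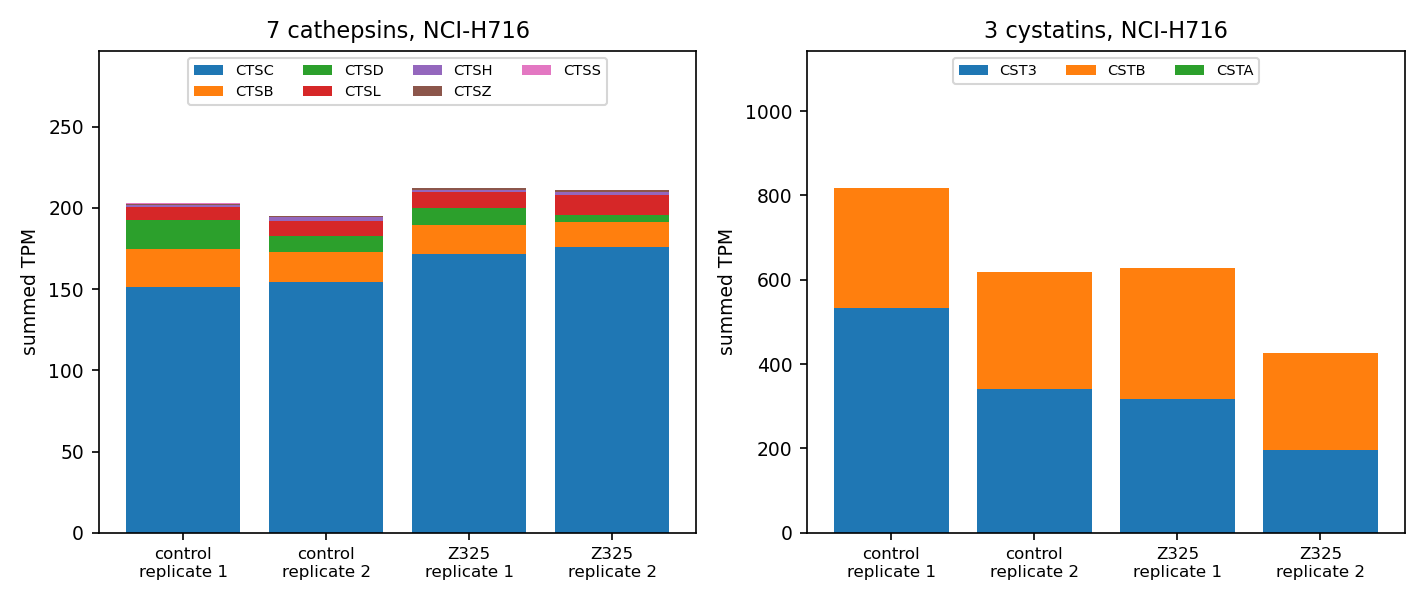
Summed TPM (vertical axes, from 0) of the 7 cathepsins and of the 3 cystatins in each NCI-H716 library, with colours for the genes. CTSC fills 74.4% to 83.5% of the cathepsin bars, and the cystatin bars, made of CST3 and CSTB, run from 428 to 817 TPM.

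In HCT116, CSTA rose in both treated libraries, which is what chose it. It had 71 and 82 reads in the controls and 639 and 136 reads in the treated libraries, and its CPM over the listed genes was 5.13 and 6.29 in the controls and 49.97 and 39.0 in the treated libraries. The lowest treated library was thus far above the highest control. The fitted log2 fold change was 2.97 (SE 0.29), or 7.81-fold, in a table where edgeR called 2.83% of the 6491 tested genes higher (adjusted p under 0.05). Both treated libraries were above both controls for 24.8% of these genes, and the groups did not overlap in either direction for 53.8%. Without the shallow treated library the value was 3.15, and with it as the only treated library it was 2.75.

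CTSB had 79.4 and 173 CPM in the HCT116 controls and 45.5 and 69.0 CPM in the treated libraries. Both treated libraries were below both controls, as for 29% of all genes tested, and the controls differed from each other by more than the treated libraries did from the lower control. The fitted log2 fold change was -1.16 (SE 0.36), a ratio of 0.448. It was -0.49 without control replicate 2, -1.61 without control replicate 1, and -1.44 without the shallow treated library. CTSS had 4 and 2 reads in the controls and 2 and 0 reads in the treated libraries and did not pass the filter.

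The 3 members listed in both lines were set side by side as CPM recomputed over the 28015 genes that all tables list, with no test, since the lines were counted by different pipelines. CSTA had 5.32 and 6.22 in the HCT116 controls and 47.7 and 39.6 after Z325, where NCI-H716 had 0 and 0.224 in the controls and 1.03 and 0.565 after Z325. The highest NCI-H716 library was therefore below the lowest HCT116 control. CTSB had 82.3 and 171 in the HCT116 controls, a range that enclosed the 129 and 101 of the NCI-H716 controls. After Z325 it had 43.4 and 70.2 in HCT116 and 103 and 89.3 in NCI-H716. CTSS stayed under 2 in every library of either line.

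**Figure D4:**
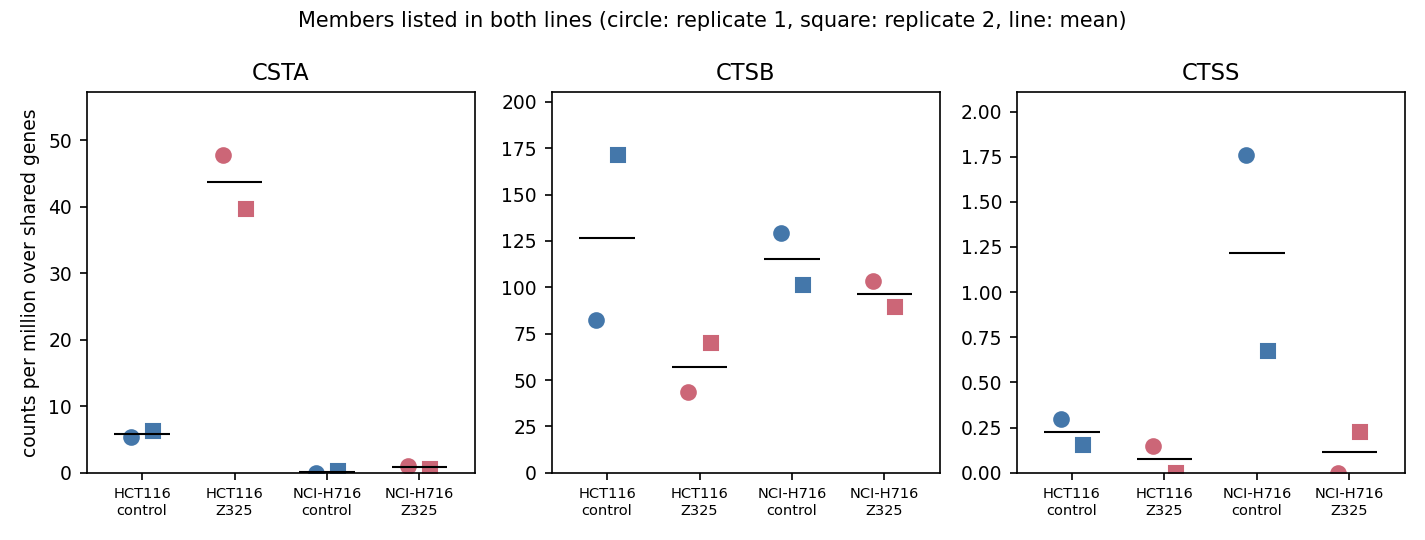
CPM over the 28015 shared genes (vertical axes, each from 0) of CSTA, CTSB and CTSS in the 8 libraries, by line and group. Circles are replicate 1, squares replicate 2 and lines the mean of 2. CSTA in treated HCT116 stands at 47.7 and 39.6, far above the other 6 libraries, and CTSB is lowest in treated HCT116.

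Further lists of the pathway were counted. Of 11 other cathepsins and related endopeptidases, 5 passed the filter in NCI-H716 and 0 passed the test in edgeR. An unadjusted p under 0.05 (edgeR) was found for 2 of the 5, where 16.8% of all genes tested had one. The median log2 fold change of the 5 was -0.43. DESeq2 called 0 of this list in either line, where it called 0.515% of all listed genes in NCI-H716 and 2.57% in HCT116. LGMN, the legumain protease that matures several cathepsins, was the most abundant of them at 84.6 TPM. Its CPM was 154 and 106 in the controls and 90.4 and 63.4 in the treated libraries, lower in both (log2 fold change -0.76, SE 0.23, adjusted p = 0.170, edgeR). The value was -0.14 on the log2(FPKM + 1) scale and ran from -1.03 to -0.46 with 1 library left out. It passed with no filter (-0.73, adjusted p = 0.0109, edgeR), a setting in which 2.46% of all genes passed, and was -1.03 without Z325 replicate 1. CTSV, the closest relative of CTSL, had 25.4 and 27.9 CPM in the controls and 18.7 and 18.5 CPM in the treated libraries, lower in both (log2 fold change -0.52, SE 0.20, adjusted p = 0.246, edgeR). CTSL and CTSV thus had fitted values of opposite sign, neither past the test. CTSA, a serine carboxypeptidase of the lysosome, had 80.7 and 60.8 CPM in the controls and 65.6 and 40.1 CPM in the treated libraries (log2 fold change -0.43, SE 0.25, adjusted p = 0.411, edgeR). It was -0.10 without Z325 replicate 2, -0.21 without control replicate 1 and -0.81 without Z325 replicate 1. In HCT116, 4 genes of this list were listed and 2 tested, and 0 passed the test (1 at an unadjusted p under 0.05, as had 23.9% of all genes tested in HCT116). The median over the pair, TINAGL1 and CTSK, was -1.18, against -0.03 over all genes tested in HCT116. CTSK had at most 24 reads there, with overlapping groups and a log2 fold change of -1.10 (SE 1.05).

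Of 21 other cystatins and serpins, 3 passed the filter in NCI-H716, the serpins SERPINB1, SERPINB6 and SERPINB9, and 0 passed the test in edgeR. An unadjusted p under 0.05 (edgeR) was found for 1 of the 3, where 16.8% of all genes tested had one. The median log2 fold change of the 3 was -0.06. DESeq2 called 0 of this list in either line, where it called 0.515% of all listed genes in NCI-H716 and 2.57% in HCT116. The 10 secreted or tissue-specific cystatin genes of this list (CST1, CST2, CST4, CST5, CST6, CST7, CST8, CST9, CST9L and CST11) had at most 2 reads in any NCI-H716 library. SERPINB6, an intracellular serine protease inhibitor, had 63.8 and 61.8 CPM in the controls and 76.0 and 92.4 CPM in the treated libraries, higher in both (log2 fold change 0.42, SE 0.18, adjusted p = 0.270, edgeR). SERPINB1 and SERPINB9, inhibitors of granule proteases, had log2 fold changes of -0.09 (adjusted p = 0.826, edgeR) and -0.06 (adjusted p = 0.941, edgeR). In HCT116, 4 of the list were tested and 0 passed the test, 2 of them at an unadjusted p under 0.05 (23.9% of all genes tested had), and the median was 0.23. SERPINB1 had 138 and 142 CPM in the HCT116 controls and 189 and 191 CPM in the treated libraries (log2 fold change 0.44, SE 0.14, adjusted p = 0.0940, edgeR).

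Of 22 genes of lysosomal sorting, processing and regulation, 21 were tested in NCI-H716, edgeR called 1 higher and 0 lower (adjusted p under 0.05), and the median log2 fold change was 0.10. The share of all genes tested that were higher was 0.403%. DESeq2 called 2, IGF2R and LAMP1, the latter named after its values were seen. It called 326 (0.515%) of all 63241 listed genes, of which only 31979 had any reads. That share is therefore lower than the share among expressed genes, to which nearly all of this list belong. The gene called by edgeR was IGF2R, the large mannose 6-phosphate receptor that carries cathepsin precursors to the endosome. Its CPM was 15.1 and 19.5 in the controls and 38.7 and 63.4 in the treated libraries, well above both controls. The log2 fold change was 1.57 (SE 0.26, adjusted p = 0.0299, edgeR). Without control replicate 1 it was 1.39 and no longer passed (adjusted p = 0.0557), nor did it pass in limma on FPKM or TPM, where it was 0.94 to 1.23. On those scales limma called only 0 to 8 genes of the whole NCI-H716 table. M6PR, the small mannose 6-phosphate receptor, had 81.3 and 75.8 CPM in the controls and 90.3 and 79.9 CPM in the treated libraries (log2 fold change 0.11, adjusted p = 0.778, edgeR). M6PR was named after its values were seen. IGF2R was not higher in both treated HCT116 libraries, with 10.8 and 6.67 CPM in the controls and 10.7 and 7.45 CPM after Z325 (log2 fold change 0.08, SE 0.40, adjusted p = 0.940, edgeR). The difference between the lines was not tested.

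In HCT116, 4 genes of that list were tested, with a median of -0.29, and edgeR and DESeq2 each called 1, ATP6V1A. DESeq2 called 722 (2.57%) of all 28043 genes listed in HCT116, of which only 14822 had any reads. ATP6V1A, a catalytic subunit of the proton pump that acidifies lysosomes, fell at an adjusted p of 0.0445 in edgeR, where 2.94% of all genes tested fell. It had 209 and 177 CPM in the controls and 127 and 118 CPM in the treated libraries, both below both controls (log2 fold change -0.66, SE 0.15). Without the shallow treated library it was -0.58 (adjusted p = 0.0354), while leaving out control replicate 1 or control replicate 2 gave -0.54 (adjusted p = 0.307) and -0.78 (adjusted p = 0.196). In NCI-H716 it had 48.6 and 56.0 CPM in the controls and 60.9 and 52.5 CPM in the treated libraries (log2 fold change 0.12, adjusted p = 0.793, edgeR). Of its exon bases, 4.04% are shared with an antisense lncRNA.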

How the data were processed

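RNA-seq of 8 libraries was analysed, 2 for each combination of line (HCT116, NCI-H716) and group (control, Z325). For NCI-H716 the authors deposited RSEM expected counts, TPM and FPKM per gene and library, made per the methods with TrimGalore, STAR (GRCh38) and RSEM. For HCT116 the authors deposited read counts per gene for all libraries in the layout of featureCounts, which the submitters' processing notes name with Bowtie2 2.5.0 and hg38. Of its 28047 lines, 4 broken lines were left out. HCT116 FPKM were computed from the deposited counts, gene lengths and listed totals. NCI-H716 identifiers were paired with symbols through GENCODE 44 (62666 of 63241).

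Expected counts were rounded. Each line was fitted alone in edgeR 4.0.16 (R 4.3.3) (quasi-likelihood test after filterByExpr and TMM scaling, without a block), with Benjamini-Hochberg adjustment over all genes tested (6491 in HCT116 and 14142 in NCI-H716). SE is the log2 fold change divided by the square root of the F statistic. edgeR's common biological coefficients of variation were 0.245 (HCT116) and 0.203 (NCI-H716). With 2 libraries per group, exact permutation of a single value cannot go below p = 0.333 and was not used. The fit was tested on simulated data. Alternatives were DESeq2 1.42.0, library size alone, other filters, limma 3.58.1 on log2(FPKM + 1), log2(FPKM + 0.1) and log2(TPM + 1), a replicate block, and leaving out each library. Sums by CPM were added after seeing the data. Named genes were the 10 members and, of each of 3 other lists, those with an adjusted p under 0.05 in either line, otherwise up to 3 with the highest mean TPM in NCI-H716. The members and lists were chosen with earlier results of these data known. Low counts limit the precision for CTSS and CSTA in NCI-H716, and intervals on counts cover counting error only.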

Additional observations from a re-analysis of the deposited data

Results flagged for a closer look

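SERPINB1, an inhibitor of granule proteases, was higher in both treated HCT116 libraries (log2 fold change 0.44) and lower in both treated NCI-H716 libraries (log2 fold change -0.086). Neither passed the test (adjusted p = 0.0940 and 0.826, edgeR). Both treated libraries were above both controls for 24.8% of all genes tested in HCT116, and below them for 25.1% in NCI-H716. The difference between the lines was not tested.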

How the results depend on the processing

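Each of 23 results was recomputed under up to 13 alternatives, 281 values in all. Of these, 216 kept their direction and their side of the threshold (or, with no test, moved by less than the spread between replicates), 25 moved, 18 changed sign, 12 came to pass the threshold and 10 no longer passed it. The causes of these changes were not tested. Of the 8 members tested in NCI-H716, 0 passed in edgeR, 1 with no filter (CST3), and 0 to 2 with 1 library left out (2, CST3 and CTSD, without Z325 replicate 1). Of the genes of the other 3 lists, 1 passed in NCI-H716 (IGF2R), 2 in DESeq2, 4 with no filter, 0 in limma on log2(FPKM + 1), log2(FPKM + 0.1), log2(FPKM + 1) with a mean FPKM of at least 1 or log2(TPM + 1), and 0 to 5 with 1 library left out. In HCT116 1 of them passed (ATP6V1A), 3 with no filter, 0 in limma at either pseudocount or with the FPKM minimum, and 0 to 3 with 1 library left out. All these calls rest on tables whose own counts of called genes moved widely: in NCI-H716 71 genes, 326 in DESeq2, 787 with no filter, 0 to 8 in limma and 62 to 1398 with 1 library left out (1398 without Z325 replicate 1), and in HCT116 375 genes, 722 in DESeq2, 683 with no filter, 615 with at least 10 counts in every library, 0 to 35 in limma and 23 to 1076 with 1 library left out (23 without control replicate 2).

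The sign of 5 small log2 fold changes in NCI-H716 changed, none of them past a threshold. CTSC came to 0.25, 0.26 and 0.25 in limma on FPKM (pseudocount 1, 0.1, and with the minimum) and to 0.18 on TPM. CTSH came to -0.083, -0.10 and -0.083 on FPKM and -0.13 on TPM, and ran from -0.30 to 0.52 with 1 library left out (-0.14 without Z325 replicate 2, -0.30 without control replicate 1). CTSZ came to 0.040, 0.078 and 0.040 on FPKM and 0.0038 on TPM, and ran from -0.40 to 0.10 with 1 library left out. CSTB ran from -0.33 to 0.11 and SERPINB9 from -0.43 to 0.27. CSTA in HCT116 was 2.65 in limma on log2(FPKM + 1), with or without the minimum, and 2.75 to 3.15 with 1 library left out. CTSB in HCT116 ran from -1.61 to -0.49. The log2 ratio of the mean cathepsin sums, 0.09 in TPM, was 0.16 in FPKM, -0.12 in CPM (a unit added after seeing the data) and ran from 0.057 to 0.11 with 1 library left out. That of the cystatin sums was -0.54 in CPM and ran from -0.75 to -0.19.

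Replicates share a number in the labels but no stated day or culture. With the replicate number as a block, 2 members passed in NCI-H716 (CST3, -0.76, adjusted p = 9.27e-08, and CTSD, -0.76, adjusted p = 0.00623, edgeR). So did 9 genes of the other lists (IGF2R, LGMN, CTSA, CTSV and SERPINB6 among them). The block moved the calls over the whole table from 71 (0.502%) to 2397 (16.9%) of the 14142 genes tested. The deviations of same-numbered libraries from their group means correlated, over the genes tested, at 0.286 in NCI-H716 and -0.0217 in HCT116. Each line had only 2 such pairs of libraries. The block gave 381 calls in HCT116.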

Other observations

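Some further genes of the lists were named after their values were seen. LAMP1, the major glycoprotein of the lysosomal membrane, had 11.6 and 11.8 CPM in the NCI-H716 controls and 18.3 and 29.4 CPM in the treated libraries (log2 fold change 1.03, SE 0.27, adjusted p = 0.128, edgeR), higher in both. TINAGL1, a secreted relative of CTSB without its protease activity, had 14.2 and 11.7 CPM in the HCT116 controls and 4.38 and 6.88 CPM in the treated libraries (log2 fold change -1.25, SE 0.38, adjusted p = 0.0943, edgeR), lower in both.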
